A study of Homo sapiens with 12 samples.

Results

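The 10 genes described here encode the shared core and the catalytic subunits of the complexes that methylate histone H3 at the lysine known as H3K4. ASH2L, WDR5, RBBP5 and DPY30 form the core of 4 subunits, and KMT2A, KMT2B, KMT2C, KMT2D, SETD1A and SETD1B are the 6 enzymes that it joins. The genes were taken by symbol, whatever their values, from a count table of 23583 features. All 10 were in the table, and all 10 were among the 16946 features with enough counts to be tested. The data are RNA sequencing of HCCLM3 and Huh7, 2 established human lines of hepatocellular carcinoma. Each line had 3 libraries labelled si-circASH2, with an siRNA against the circular RNA circASH2, and 3 labelled si-NC, with a negative control siRNA, so that every library came from siRNA-treated cells. Per the study's design text the aim was to learn what silencing this circle does in the context of metastasis. The circle takes its name from ASH2L, which makes ASH2L the gene of these complexes that the study's own target points to.

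Methylated H3K4 marks active promoters and enhancers. A lone KMT2 or SETD1 enzyme has little activity: WDR5 holds the enzyme to the complex, RBBP5 and ASH2L together switch the catalytic domain on, and DPY30 binds ASH2L. SETD1A and SETD1B place most trimethylation at promoters, KMT2A and KMT2B act at selected promoters such as those of HOX genes, and KMT2C and KMT2D place monomethylation at enhancers. The core is common to all 6 enzymes, so its subunits are shared between complexes that act at different sites.

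Total counts per library lay between 29006781 and 30858895. Levels are given as CPM, the counts scaled to an equal library size with the TMM factors of edgeR. Differences between groups are log2 fold changes with a standard error and an edgeR quasi-likelihood adjusted p (Benjamini-Hochberg over all 16946 features, threshold 0.05). A gene is said to have risen or fallen only where it passed that threshold. The labels do not say whether libraries of 1 group are separate cultures, and the p-values then measure the spread between libraries, which may be technical. In RNA from whole cultures, fewer cells with a transcript and less transcript per cell cannot be told apart. The summed level of 9 hepatocyte markers lay between 5630 and 5755 CPM in HCCLM3 si-circASH2 and between 5485 and 5653 CPM in HCCLM3 si-NC libraries, and between 33601 and 34075 CPM in Huh7 si-circASH2 and between 35275 and 35466 CPM in Huh7 si-NC libraries. The 15 markers of fibroblasts, endothelium and leukocytes summed to 246 to 278 CPM in HCCLM3 si-circASH2 against 207 to 227 CPM in HCCLM3 si-NC libraries, and to 120 to 125 CPM in Huh7 si-circASH2 against 83.9 to 87.5 CPM in Huh7 si-NC libraries. Most of the HCCLM3 sum was CD68, with 187 CPM with si-circASH2 and 154 CPM with si-NC. In Huh7 COL1A2 had 38.9 CPM with si-circASH2 against 24.4 CPM with si-NC, CD68 38.6 against 20.7 CPM and PECAM1 23.8 against 26.0 CPM. The leukocyte marker PTPRC had at most 0.849 CPM as a group mean. The hepatocyte sum hides unlike members: KRT8 and KRT18, keratins of simple epithelia, made up 97.1% of it in HCCLM3 si-circASH2 and 97.2% in HCCLM3 si-NC, against 10.7% in Huh7 si-circASH2 and 8.13% in Huh7 si-NC. The other 7 markers summed to 164 CPM in HCCLM3 si-circASH2 and 154 CPM in HCCLM3 si-NC, most of it from HNF4A and APOB, with albumin (ALB) at 2.81 and 3.24 CPM and SERPINA1 at 0.0226 and 0.0233 CPM. In Huh7 the members did not move together: ALB had 8452 CPM with si-circASH2 against 9866 CPM with si-NC, and KRT8 2369 against 1911 CPM. CD3E and MS4A1, which define T and B cells, were at 0 in every library, and the part of the other markers in the results below was not tested.

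After si-circASH2 the 10 genes moved little and not together. In HCCLM3, 4 rose (RBBP5, KMT2C, KMT2D and SETD1A), 1 fell (ASH2L) and 5 did not pass, where 15.1% of all tested features were called higher and 15.5% lower. In Huh7, 3 rose (RBBP5, KMT2C and SETD1A), 3 fell (ASH2L, WDR5 and DPY30) and 4 did not pass, where 16.3% of all tested features were called higher and 15.1% lower. Without Huh7 si-NC replicate 1, the calls left in Huh7 were the 3 of ASH2L, WDR5 and RBBP5, which were also the 3 left with limma on deposited FPKM over all features above 0. The median log2 fold change of the 10 was 0.11 in HCCLM3 and -0.11 in Huh7, against 0.00 and 0.01 over all tested features. The median size of the change without its sign was 0.17 in HCCLM3 and 0.15 in Huh7, against 0.17 and 0.18 over all tested features, and no gene of the 10 changed by more than 0.33 in HCCLM3 or 0.19 in Huh7.

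**Figure D1:**
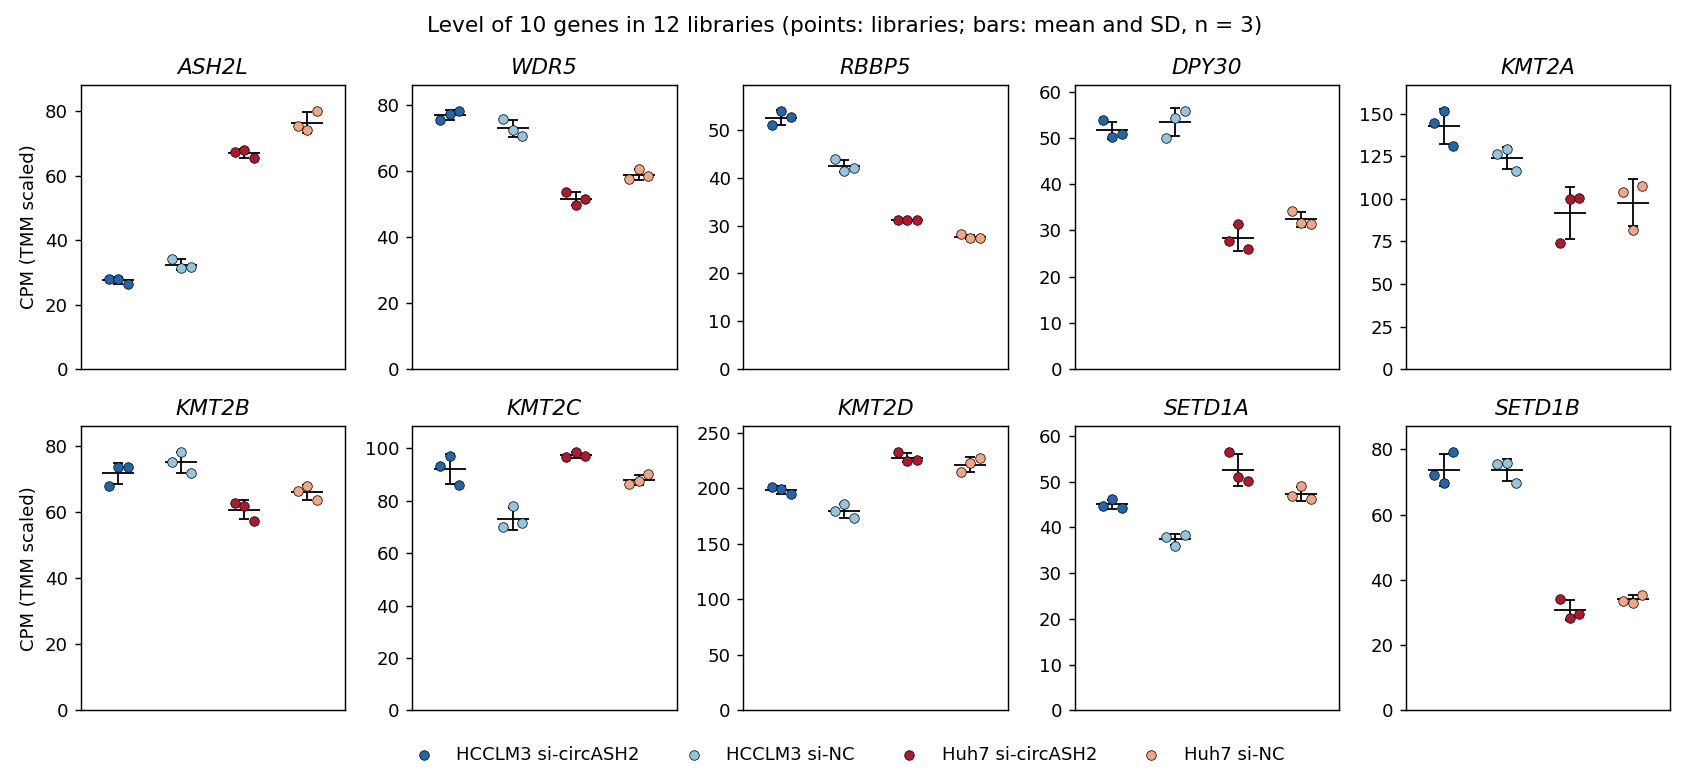
CPM of each of the 10 genes, with a panel per gene, a dot per library and bars for the mean and SD of each group (n = 3), in the order HCCLM3 si-circASH2, HCCLM3 si-NC, Huh7 si-circASH2, Huh7 si-NC. ASH2L is lower and SETD1B higher in all HCCLM3 libraries than in all Huh7 libraries, and KMT2A has the widest spread between replicates.

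ASH2L, the subunit that gives circASH2 its name, lies on chromosome 8 (38105242 to 38144076, plus strand, GRCh38). In HCCLM3 it had 28.1, 28.03 and 26.4 CPM with si-circASH2, against 34.2, 31.3 and 31.8 CPM with si-NC. The Huh7 libraries had 67.4, 68.1 and 65.5 CPM with si-circASH2, against 75.3, 74.1 and 80.2 CPM with si-NC. In both lines every si-circASH2 library lay below every si-NC library. The log2 fold change was -0.24 ± 0.05 in HCCLM3 (edgeR adjusted p = 0.0014) and -0.19 ± 0.05 in Huh7 (edgeR adjusted p = 0.00304), so ASH2L fell by 15.2% in HCCLM3 and fell by 12.5% in Huh7. A larger change in either direction was found for 39.2% of tested features in HCCLM3 and for 47.3% in Huh7. No difference between the lines was detectable (HCCLM3 minus Huh7 -0.05, 95% interval -0.19 to 0.10, edgeR adjusted p = 0.743). An exact two-sided permutation test of 3 against 3 libraries can give no p below 0.1, whatever the gene. The gene count does not measure circASH2 on its own, and whether it holds reads of the circle is not known. The circle was not analysed here. The annotation holds 3 pseudogene copies of ASH2L, named ASH2LP1, ASH2LP2 and ASH2LP3, and the opposite-strand gene STAR overlaps its end, with at most 0.447 CPM as a group mean.

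WDR5 (chromosome 9, 134135365 to 134159968, plus strand), the propeller-shaped subunit that grips the enzyme, moved differently in the lines. In HCCLM3 it had 75.4, 77.3 and 78.3 CPM with si-circASH2, against 75.9, 72.4 and 70.5 CPM with si-NC, where the groups overlap and the fold change did not pass (0.08 ± 0.04, interval -0.01 to 0.17, edgeR adjusted p = 0.188). Its Huh7 libraries had 53.6, 49.7 and 51.5 CPM with si-circASH2, against 57.5, 60.7 and 58.4 CPM with si-NC, and do not overlap. WDR5 fell in Huh7 (log2 fold change -0.19 ± 0.05, edgeR adjusted p = 0.00205). The difference between the effects, HCCLM3 minus Huh7, passed in its own test (0.27 ± 0.06, edgeR adjusted p = 0.003).

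RBBP5 (chromosome 1, 205086142 to 205122015, minus strand), which works with ASH2L to activate the enzymes, rose in both lines while ASH2L fell. Its HCCLM3 libraries had 50.9, 54.0 and 52.8 CPM with si-circASH2, against 43.9, 41.5 and 41.9 CPM with si-NC. Those of Huh7 had 31.1, 31.1 and 31.3 CPM with si-circASH2, against 28.1, 27.3 and 27.3 CPM with si-NC. No si-circASH2 library overlapped the si-NC libraries of its line. The log2 fold changes were 0.31 ± 0.05 in HCCLM3 (edgeR adjusted p = 2.73e-05) and 0.17 ± 0.05 in Huh7 (edgeR adjusted p = 0.0122), and their difference did not pass (0.14, interval -0.01 to 0.28, edgeR adjusted p = 0.196).

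DPY30 (chromosome 2, 31867809 to 32039812, minus strand) encodes the small subunit that docks on ASH2L. Its HCCLM3 libraries had 53.8, 50.2 and 50.9 CPM with si-circASH2, against 49.96, 54.4 and 55.9 CPM with si-NC, which overlap (-0.05 ± 0.06, interval -0.18 to 0.08, edgeR adjusted p = 0.614). The Huh7 libraries had 27.7, 31.4 and 26.0 CPM with si-circASH2, against 34.3, 31.6 and 31.5 CPM with si-NC, separated by a margin that si-circASH2 replicate 2 makes narrow. The fall in Huh7 passed (log2 fold change -0.19 ± 0.07, edgeR adjusted p = 0.028). It no longer did without replicate 1 of the Huh7 si-NC libraries (adjusted p = 0.137), replicate 1 of the si-circASH2 libraries (0.0904) or replicate 3 of them (0.167), nor with limma on FPKM over all features above 0 (0.0597). MEMO1 overlaps DPY30 on the same strand, with group means of 58.2 CPM in HCCLM3 si-circASH2, 59.4 in HCCLM3 si-NC, 24.2 in Huh7 si-circASH2 and 25.1 in Huh7 si-NC, and how overlapping reads were shared is not known.

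Of the enzymes that trimethylate promoters, SETD1A rose in both lines and SETD1B passed in neither. SETD1A (chromosome 16, 30957294 to 30984664, plus strand) had 44.7, 46.2 and 44.3 CPM in HCCLM3 si-circASH2 libraries, against 37.9, 36.1 and 38.3 CPM in HCCLM3 si-NC libraries. In Huh7 its libraries had 56.5, 51.1 and 50.1 CPM with si-circASH2, against 46.8, 49.0 and 46.1 CPM with si-NC. The groups did not overlap in either line. The rise was 0.27 ± 0.05 in HCCLM3 (edgeR adjusted p = 0.000452) and 0.15 ± 0.05 in Huh7 (edgeR adjusted p = 0.0287). The Huh7 call was lost without replicate 1 of the si-circASH2 libraries (adjusted p = 0.184), the highest, and without replicate 1 (0.0821) or replicate 3 (0.0982) of the Huh7 si-NC libraries. It was also lost when Huh7 was fitted alone (0.063), without the filter on low counts (0.0537) and with limma on FPKM (0.0849 to 0.0981). SETD1B (chromosome 12, 121804180 to 121832584, plus strand) had 72.1, 69.8 and 79.1 CPM in HCCLM3 si-circASH2 libraries, against 75.4, 75.8 and 69.6 CPM in HCCLM3 si-NC libraries, and the interval of its fold change ran from -0.12 to 0.12. The Huh7 libraries had 34.1, 28.4 and 29.6 CPM with si-circASH2, against 33.6, 33.1 and 35.4 CPM with si-NC, with an overlap made by si-circASH2 replicate 1. The change there did not pass (-0.15 ± 0.07, edgeR adjusted p = 0.09), but did without that library (-0.23, adjusted p = 0.00891).

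KMT2A and KMT2B, the menin-bound enzymes, passed in neither line. KMT2A (chromosome 11, 118436464 to 118526832, plus strand) had the widest spread of the 10 genes. Its HCCLM3 libraries had 144.6, 151.8 and 131.3 CPM with si-circASH2, against 126.5, 129.1 and 116.7 CPM with si-NC, without overlap. Those of Huh7 had 74.3, 100.1 and 100.8 CPM with si-circASH2, against 104.2, 81.9 and 107.6 CPM with si-NC, so that 1 library of each group was low. The log2 fold changes were 0.20 ± 0.14 in HCCLM3 (interval -0.12 to 0.52, edgeR adjusted p = 0.334) and -0.09 ± 0.14 in Huh7 (interval -0.42 to 0.23, edgeR adjusted p = 0.694). Fitted on the HCCLM3 libraries alone, which does not draw the spread from Huh7, the HCCLM3 change passed (adjusted p = 0.0029). KMT2B (chromosome 19, 35718019 to 35738878, plus strand) had 68.0, 73.5 and 73.7 CPM in HCCLM3 si-circASH2 libraries, against 75.3, 78.2 and 71.7 CPM in HCCLM3 si-NC libraries, which overlap (-0.07 ± 0.05, edgeR adjusted p = 0.34). Its Huh7 libraries had 62.8, 61.8 and 57.4 CPM with si-circASH2, against 66.4, 68.0 and 63.6 CPM with si-NC, which do not overlap (-0.12 ± 0.05, edgeR adjusted p = 0.062). KMT2B passed when Huh7 was fitted alone (adjusted p = 0.0389), without the filter on low counts (0.0426), without replicate 3 of the Huh7 si-NC libraries (0.0429) and without replicate 1 of the Huh7 si-circASH2 libraries (0.0438). The opposite-strand gene IGFLR1, which overlaps KMT2B, had group means of 7.42 CPM in HCCLM3 si-circASH2, 6.05 in HCCLM3 si-NC, 4.04 in Huh7 si-circASH2 and 3.78 in Huh7 si-NC.

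The enhancer enzymes KMT2C and KMT2D both rose in HCCLM3. KMT2C (chromosome 7, 152134922 to 152436005, minus strand) had 93.2, 97.2 and 86.0 CPM in HCCLM3 si-circASH2 libraries, against 69.9, 77.9 and 71.6 CPM in HCCLM3 si-NC libraries. This rise of 0.33 ± 0.05 (edgeR adjusted p = 6.62e-06), or 26.0%, was the largest knockdown change of the 10 genes on counts, and 27.9% of tested features changed by more. With limma on the deposited FPKM it was 0.23 to 0.27 (adjusted p up to 0.0498), below the 0.28 to 0.31 of RBBP5. In Huh7 KMT2C had 96.6, 98.5 and 96.9 CPM with si-circASH2, against 86.5, 87.4 and 90.02 CPM with si-NC, again without overlap (0.15 ± 0.05, edgeR adjusted p = 0.0179). The Huh7 rise depends on the unit: on the deposited FPKM the change was -0.03 on the log2(FPKM + 1) scale. The CPM that went with 1 FPKM, a ratio that grows with the length used to make the FPKM, was 16.5, 16.5 and 17.02 for KMT2C in HCCLM3 si-circASH2 libraries, against 15.7, 15.2 and 17.3 in HCCLM3 si-NC libraries. In Huh7 the ratio was 17.996, 15.9 and 16.3 with si-circASH2, against 14.6, 15.03 and 14.5 with si-NC. The Huh7 call on counts was also lost without replicate 1 (adjusted p = 0.0689) or 2 (0.0601) of the Huh7 si-NC libraries, or replicate 2 of the si-circASH2 libraries (0.0564). KMT2C has near-identical partial copies elsewhere in the genome, so its level is uncertain where reads could not be placed. KMT2D (chromosome 12, 49018975 to 49059774, minus strand) had 201.2, 199.3 and 194.6 CPM in HCCLM3 si-circASH2 libraries, against 179.8, 185.8 and 173.6 CPM in HCCLM3 si-NC libraries, without overlap (0.14 ± 0.04, edgeR adjusted p = 0.00388). The Huh7 libraries had 232.6, 224.8 and 225.5 CPM with si-circASH2, against 214.4, 222.5 and 227.1 CPM with si-NC, which overlap (0.04 ± 0.04, interval -0.03 to 0.11, edgeR adjusted p = 0.435).

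**Figure D2:**
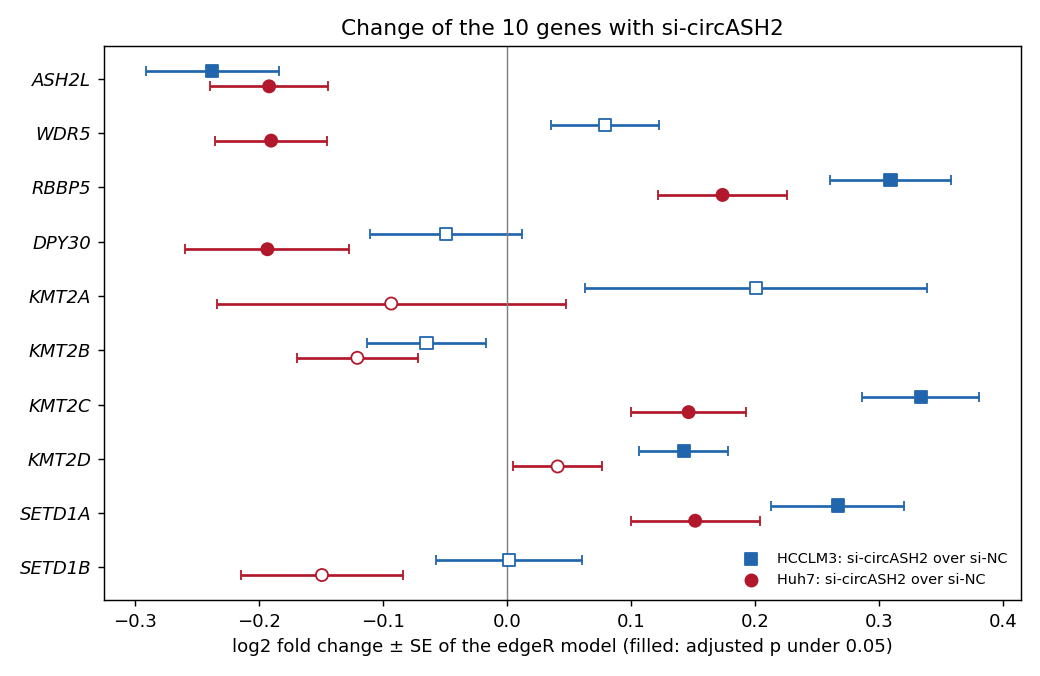
Log2 fold change of each of the 10 genes, si-circASH2 over si-NC, in HCCLM3 (squares) and in Huh7 (circles), with bars for the standard error, filled where the edgeR adjusted p passed 0.05 and open where it did not. ASH2L lies below 0 and RBBP5, SETD1A and KMT2C above 0 in both lines, while WDR5 is on opposite sides of 0.

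Tested directly, the knockdown effects differed between the lines for 2 of the 10 genes, both higher in HCCLM3 than in Huh7. Over all tested features 9.6% were called higher and 11.3% lower in this comparison. Beside WDR5, KMT2C had a larger rise in HCCLM3 (difference 0.19 ± 0.07, edgeR adjusted p = 0.0464). That call is near the threshold: it held in 2 of 12 fits that left out 1 library, those without HCCLM3 si-NC replicate 2 (adjusted p = 0.016) and HCCLM3 si-circASH2 replicate 3 (0.0138), and the other 10 gave up to 0.153. It was lost with upper quartile factors (adjusted p = 0.0589) and with limma on FPKM (0.0765 to 0.122). The WDR5 difference held in all 12 fits that left out 1 library. The difference for KMT2A was larger in value but wide (0.29, interval -0.16 to 0.75, edgeR adjusted p = 0.364). The remaining differences, for SETD1B (0.15), DPY30 (0.14), RBBP5 (0.14), SETD1A (0.11), KMT2D (0.10), KMT2B (0.06) and ASH2L (-0.05), did not pass. For SETD1B the difference passed without Huh7 si-circASH2 replicate 1 (0.23, adjusted p = 0.0483), and for KMT2D with limma on log2(FPKM + 1) over all features above 0 (0.15, adjusted p = 0.0417), 1 of 8 settings that kept every library.

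Earlier work on these libraries had set 3 short sequences against the knockdown. On the transcript strand of 1 annotated transcript per gene, TTATACC occurs in the 3′ untranslated region (UTR) of 6.67% of 19095 genes and in the coding sequence of 4.07%. The second, TATACCA, overlaps it and occurs in 7.4% and 5.98% in the same order of regions. The third, TCGGAGAA, occurs in 0.461% and 2.55%. None of the 10 genes holds any of them in the 3′ UTR, and 3 of the 10 hold at least 1 in coding sequence. The share of all genes with at least 1 of the 3 was not counted. Transcript length, from 708 bases for DPY30 to 19419 for KMT2D among the 10, was not taken into account. ASH2L has 2 of them there, which overlap, and KMT2C and SETD1A hold the copies printed here 5′ to 3′ with the matched letters in capitals and 10 bases on each side. KMT2C and SETD1A rose in both lines and ASH2L, which shares such letters, fell. RBBP5, which holds none of the 3 sequences, also rose in both lines. The Huh7 rises of KMT2C and SETD1A each held in 3 of 6 fits that left out 1 library. A link between the letters and the direction was not tested. Coordinates are GRCh38 and the bases are those of the GENCODE transcripts.
KMT2C, chr7:152220716-152220722, minus strand: cacccaagacTTATACCcaggatggtg
KMT2C, chr7:152145263-152145269, minus strand: catgtgaaaaTTATACCttccgatacg
KMT2C, chr7:152138813-152138820, minus strand: tcagctccagTCGGAGAAtccagaaagg
SETD1A, chr16:30959102-30959108, plus strand: actcaaagtaTATACCAgtcgaagacc
SETD1A, chr16:30969454-30969461, plus strand: ggagtcctccTCGGAGAAggatgaggag
A match of letters is a description of the sequence and names no site of action.

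Levels can be set side by side between genes only per length, so the deposited FPKM were used for the order within the complexes. DPY30 was highest in every group, with 65.7 ± 3.04 FPKM in HCCLM3 si-circASH2, 67.8 ± 3.54 in HCCLM3 si-NC, 35.4 ± 3.70 in Huh7 si-circASH2 and 40.9 ± 2.14 in Huh7 si-NC libraries (SD, n = 3 each). In HCCLM3 WDR5 came next, with 21.8 FPKM after si-circASH2 and 20.6 FPKM with si-NC. ASH2L had 8.55 FPKM in HCCLM3 si-circASH2 libraries, below RBBP5 (10.7) and KMT2D (9.91), against 10.4 ± 0.446 FPKM in HCCLM3 si-NC libraries, where RBBP5 had 8.58 FPKM. KMT2C was lowest in HCCLM3, with 5.52 FPKM after si-circASH2 and 4.58 FPKM with si-NC, and its libraries overlapped those of SETD1A in both groups. In Huh7 the place below DPY30 belonged to ASH2L, with 21.1 ± 0.427 FPKM after si-circASH2 and 24.3 ± 1.08 FPKM with si-NC, above WDR5 with 14.4 and 16.6 FPKM and KMT2D with 11.6 FPKM in both groups. SETD1A (6.65 FPKM) followed in Huh7 si-circASH2 libraries, then KMT2B, RBBP5, KMT2A and KMT2C with 5.83 to 6.25 FPKM, where neighbours in the order overlapped, and SETD1B was lowest with 3.34 FPKM after si-circASH2 and 3.78 FPKM with si-NC.

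**Figure D3:**
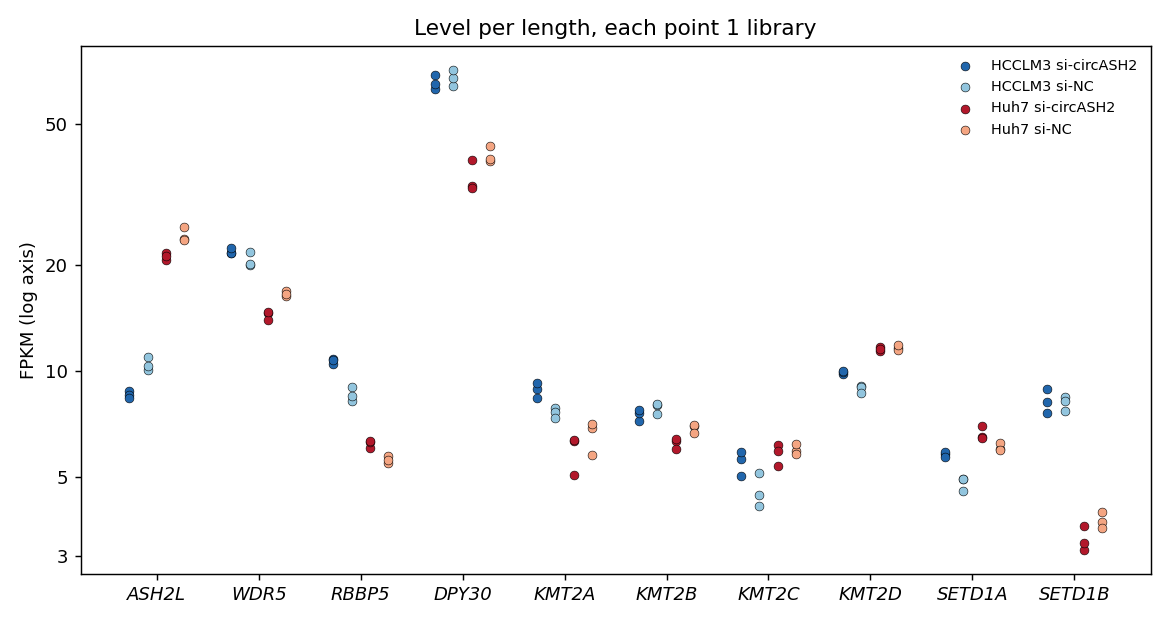
Deposited FPKM of the 10 genes on a log axis, with a dot per library and colours for the groups HCCLM3 si-circASH2, HCCLM3 si-NC, Huh7 si-circASH2 and Huh7 si-NC. DPY30 is highest in all 4 groups, and ASH2L is next to it in Huh7 and below WDR5 in HCCLM3.

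As a share of the summed FPKM of the 4 core subunits, ASH2L made up 8.01% ± 0.175 in HCCLM3 si-circASH2 and 9.72% ± 0.523 in HCCLM3 si-NC libraries, and 27.4% ± 0.897 in Huh7 si-circASH2 and 27.8% ± 1.28 in Huh7 si-NC libraries (SD, n = 3 each). The shares of the si-circASH2 and si-NC groups overlapped in Huh7 and not in HCCLM3. RBBP5 took 9.99% in HCCLM3 si-circASH2 against 7.99% in HCCLM3 si-NC, and 8.09% in Huh7 si-circASH2 against 6.42% in Huh7 si-NC libraries. In HCCLM3 RBBP5 thus stood above ASH2L with si-circASH2 and below it with si-NC. The summed FPKM of the core was 107 ± 2.94 in HCCLM3 si-circASH2 and 107 ± 2.41 in HCCLM3 si-NC, and 77.2 ± 3.71 in Huh7 si-circASH2 and 87.3 ± 1.86 in Huh7 si-NC libraries. That of the 6 enzymes was 45.8 ± 0.298 in HCCLM3 si-circASH2 and 41.9 ± 1.32 in HCCLM3 si-NC, and 39.6 ± 0.730 in Huh7 si-circASH2 and 40.9 ± 0.967 in Huh7 si-NC libraries. Among the enzymes KMT2D held the largest share, 21.6% and 21.2% in the si-circASH2 and si-NC libraries of HCCLM3 and 29.2% and 28.4% in those of Huh7. SETD1B held 17.9% and 19.4% in the si-circASH2 and si-NC libraries of HCCLM3, and 8.45% and 9.22% in those of Huh7. These sums and shares were not tested.

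With the control siRNA the lines differed from each other in all 10 genes. The si-NC libraries of HCCLM3 and of Huh7 compared here also serve as the controls of the knockdown comparisons. In HCCLM3, 6 genes were higher and 4 lower, where 41.6% of all tested features were called higher and 43.6% lower. No gene's groups overlapped, but the share of all tested features without overlap was not counted. The median size of the difference was 0.34 for the 10 genes, against 0.96 over all tested features. ASH2L had the largest difference, 32.4 ± 1.59 CPM in HCCLM3 against 76.5 ± 3.21 CPM in Huh7 (log2 difference -1.24 ± 0.05, edgeR adjusted p = 5.09e-17). SETD1B differed nearly as much the other way, with 73.6 ± 3.49 CPM in HCCLM3 against 34.0 ± 1.20 CPM in Huh7 (1.11 ± 0.06, edgeR adjusted p = 5.14e-14). The partners of ASH2L in the core were all higher in HCCLM3, DPY30 by 0.72, RBBP5 by 0.62 and WDR5 by 0.31 on the log2 scale. KMT2A (0.34, edgeR adjusted p = 0.0456) and KMT2B (0.19) were higher too, and KMT2C (-0.27), KMT2D (-0.30) and SETD1A (-0.34) were lower in HCCLM3. The KMT2A call was lost with RLE factors (adjusted p = 0.0521), with upper quartile factors (0.0569), without the filter on low counts (0.0605), with the replicate block (0.0833) and with limma on FPKM over all features above 0 (0.0669). Of the 6 fits that left out a library, the KMT2A call held in the 1 without Huh7 si-NC replicate 3 (adjusted p = 0.0401), and the others gave up to 0.133.

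The genes around ASH2L were read for comparison, taking the 5 tested protein-coding genes on each side. Of the 8 with more than 1 CPM in either line, all 8 were lower in HCCLM3 si-NC than in Huh7 si-NC libraries. ASH2L was lower too. Over all tested features 43.6% were called lower in this comparison of the lines. Whether the 8 neighbours depart from that share was not tested. Genes beyond the 5 on each side were not part of this reading, so its extent along the chromosome is not known. On the side before ASH2L, ERLIN2 had 49.1 CPM in HCCLM3 against 90.5 CPM in Huh7 (log2 difference -0.88), BRF2 8.66 against 30.2 CPM (-1.80), RAB11FIP1 75.3 against 110.7 CPM (-0.56) and EIF4EBP1 54.2 against 74.98 CPM (-0.47). On the side after it, LSM1 had 26.7 CPM in HCCLM3 against 31.998 CPM in Huh7 (-0.26), BAG4 22.9 against 72.4 CPM (-1.66), DDHD2 22.1 against 48.7 CPM (-1.14) and PLPP5 17.0 against 60.01 CPM (-1.82). DNA copy number was not measured here, and its part in these differences was not tested. ADGRA2 had 0.318 CPM in HCCLM3 against 0.142 CPM in Huh7, which did not pass (edgeR adjusted p = 0.192), and STAR was at 0 in the HCCLM3 si-NC libraries and at 0.329 CPM in those of Huh7.

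**Figure D4:**
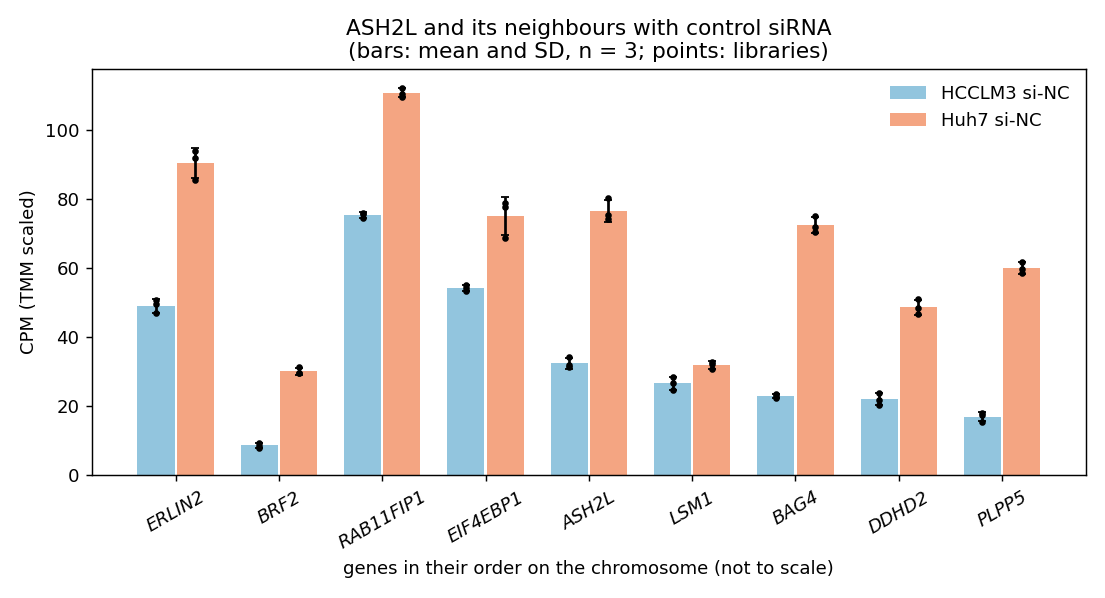
CPM of ASH2L and its 8 expressed neighbours, in their order along the chromosome, in HCCLM3 si-NC and Huh7 si-NC libraries, with bars for the mean, error bars for the SD (n = 3) and a dot per library. The HCCLM3 bar is the lower in all 9 genes, with 32.4 CPM against 76.5 CPM in Huh7 for ASH2L.

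After the knockdown these neighbours did not all move as ASH2L did. In HCCLM3 ERLIN2, an endoplasmic reticulum protein (0.41), the phospholipase DDHD2 (0.46) and RAB11FIP1, a partner of RAB11 in membrane recycling (0.26), rose and none of the 8 fell, with BAG4 at 0.15 (edgeR adjusted p = 0.0595). In Huh7 ERLIN2 (0.53) and DDHD2 (0.30) rose, while EIF4EBP1, a brake on translation, fell by 0.35 and BAG4 fell by 0.18 (edgeR adjusted p = 0.0105). The BAG4 call was lost without Huh7 si-NC replicate 1 (adjusted p = 0.061) and without Huh7 si-circASH2 replicate 2, at the same value. Of these 9 genes, ASH2L was the 1 that passed as lower in both lines. Over all tested features 15.1% were called higher and 15.5% lower in HCCLM3, and 16.3% and 15.1% in Huh7. The share of all tested features called lower in both lines was not counted, so this does not set ASH2L apart.

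Counts of further gene lists are to be read against the shares of all tested features, 15.1% higher, 15.5% lower and 69.4% not past the threshold in HCCLM3, and 16.3%, 15.1% and 68.6% in Huh7. The subunits that distinguish the complexes moved in both directions. Of 12 such genes, 3 rose, 2 fell and 7 did not pass in HCCLM3 (median log2 fold change 0.05), and 2 rose, 5 fell and 5 did not pass in Huh7 (median -0.07). With limma on FPKM over all features above 0, 3 in place of 5 fell in Huh7. CXXC1, the CpG-binding subunit of SETD1 complexes, passed in neither line (-0.03 in HCCLM3 and 0.01 in Huh7). WDR82, another of the 12, fell in Huh7. Its call was lost with upper quartile factors (-0.09, edgeR adjusted p = 0.0913) and with the replicate block (-0.10, 0.0504). Limma on FPKM over all features above 0 lost it too (adjusted p = 0.0535). So did leaving out replicate 2 (edgeR adjusted p = 0.0798) or 3 (0.173) of the Huh7 si-NC libraries. The same held for replicate 1 (0.0877) or 3 (0.114) of the Huh7 si-circASH2 libraries. BOD1, a partner of SETD1B, rose in both. It had 32.9 CPM in HCCLM3 si-circASH2 against 28.4 CPM in HCCLM3 si-NC libraries (0.22 ± 0.05, edgeR adjusted p = 0.00379), and 53.9 CPM in Huh7 si-circASH2 against 48.03 CPM in Huh7 si-NC libraries (0.17 ± 0.05, edgeR adjusted p = 0.0148, lost without Huh7 si-circASH2 replicate 1 at 0.077). Its relative BOD1L1 rose in HCCLM3 (0.25, edgeR adjusted p = 0.00031).

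Among the partners of KMT2A and KMT2B, HCFC2, a relative of the host cell factor HCFC1, fell most. It had 19.5 ± 0.855 CPM in HCCLM3 si-circASH2 against 25.4 ± 1.63 CPM in HCCLM3 si-NC libraries (-0.38 ± 0.08, edgeR adjusted p = 0.000429), and 10.4 ± 0.999 against 14.05 ± 0.739 CPM in the si-circASH2 and si-NC libraries of Huh7 (-0.43 ± 0.08, edgeR adjusted p = 0.000355). HCFC1 itself went opposite ways, 0.15 ± 0.04 in HCCLM3 and -0.15 ± 0.04 in Huh7 (edgeR adjusted p = 0.0117 in both), and the difference passed (0.30 ± 0.06, edgeR adjusted p = 0.00113). The HCCLM3 call of HCFC1 was lost without HCCLM3 si-NC replicate 3 (adjusted p = 0.0707) and with limma on FPKM over all features above 0 (0.0598), and the Huh7 call without Huh7 si-circASH2 replicate 2 (0.0905). PSIP1, which tethers menin and KMT2A to chromatin, had a log2 fold change of 0.01 in HCCLM3 and fell in Huh7 (-0.27 ± 0.05, edgeR adjusted p = 0.00036), a call lost with limma on FPKM in 2 of its 3 forms (adjusted p = 0.0574 and 0.0893). MEN1, which encodes menin, passed in neither line (0.12 in HCCLM3 and -0.03 in Huh7).

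Among the partners of KMT2C and KMT2D, KDM6A, the H3K27 demethylase that travels with these enzymes, fell in HCCLM3 to 72.4 ± 2.17 CPM with si-circASH2, against 86.9 ± 1.22 CPM with si-NC (-0.26 ± 0.04, edgeR adjusted p = 2.53e-05). Its effect differed between the lines (-0.34 ± 0.06, edgeR adjusted p = 0.00014). NCOA6, a nuclear receptor coactivator, fell in Huh7 (-0.20 ± 0.04, edgeR adjusted p = 0.000488). KMT2C and KMT2D themselves rose in HCCLM3, so the subunits of this complex did not move together there.

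Genes that serve the removal of H3K4 methylation also moved in both directions. Of 6, 1 rose, 2 fell and 3 did not pass in HCCLM3 (median -0.05), and 2 rose, 1 fell and 3 did not pass in Huh7 (median -0.03), where 30.6% of all tested features passed in HCCLM3 and 31.4% in Huh7. The largest change was that of KDM5B, a trimethyl demethylase, in HCCLM3, with 28.8 ± 0.777 CPM after si-circASH2 against 44.8 ± 3.17 CPM with si-NC (-0.64 ± 0.06, edgeR adjusted p = 3.36e-08). In Huh7 KDM5B had 35.0 CPM with si-circASH2 and 35.4 CPM with si-NC (-0.02), and the difference between the lines passed (-0.62 ± 0.09, edgeR adjusted p = 1.42e-05). RCOR1, the scaffold that brings the demethylase KDM1A to chromatin, fell in both lines (-0.31 in HCCLM3 at an edgeR adjusted p of 5.15e-06, and -0.17 in Huh7 at 0.00703), while KDM1A passed in neither. KDM5C rose in Huh7 (0.13, edgeR adjusted p = 0.00391). KDM5A passed in both lines by 0.13 (edgeR adjusted p = 0.0262 in HCCLM3 and 0.0437 in Huh7). It held in only 2 of 6 fits that left out a library in HCCLM3 and in 1 of 6 in Huh7, with adjusted p up to 0.112 and 0.19. Limma on FPKM lost both calls (0.12 to 0.167 in HCCLM3 and 0.3 to 0.323 in Huh7). The Huh7 call of KDM5A was also lost without the filter on low counts (edgeR adjusted p = 0.0867) and when Huh7 was fitted alone (0.117).

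**Figure D5:**
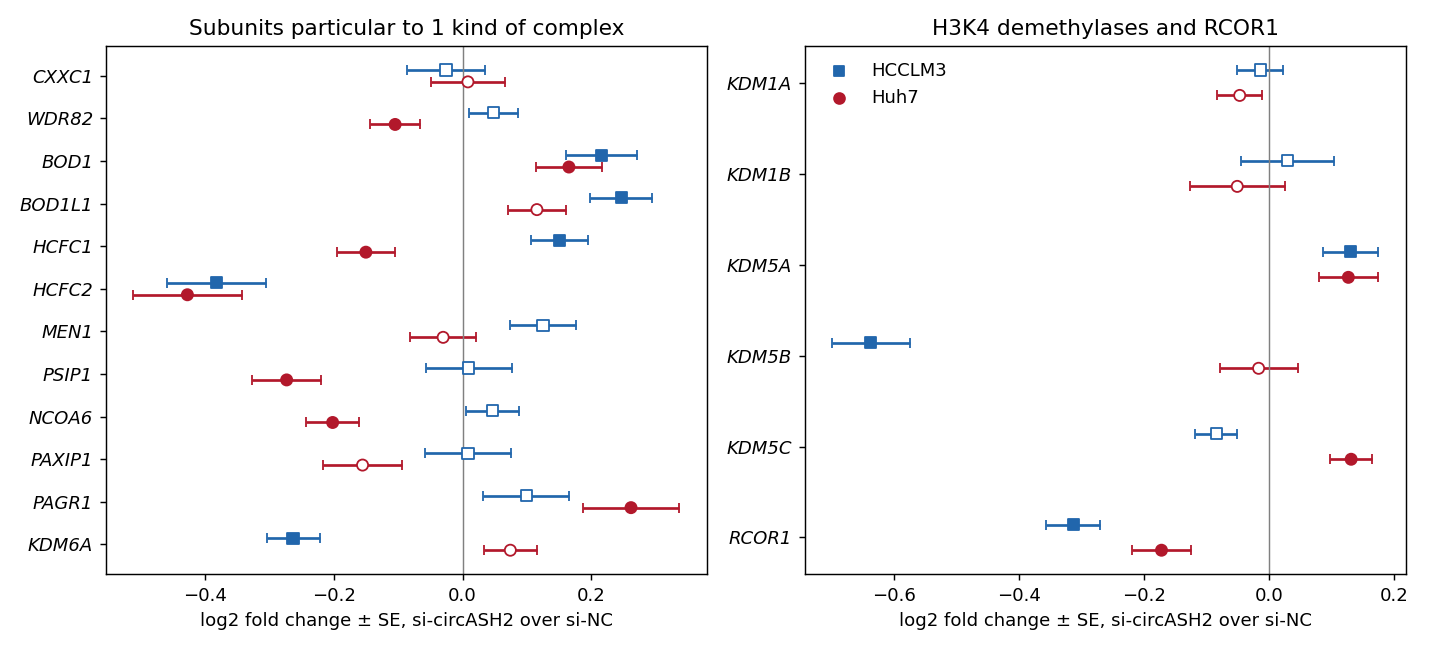
Log2 fold changes, si-circASH2 over si-NC, of the 12 complex-specific subunits and of the 6 genes of H3K4 demethylation in HCCLM3 (squares) and in Huh7 (circles), with bars for the standard error, filled where the edgeR adjusted p passed 0.05. HCFC2 and RCOR1 are below 0 in both lines, HCFC1 is on opposite sides of 0, and KDM5B is at -0.64 in HCCLM3 and at -0.02 in Huh7.

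Larger changes among genes assigned to H3K4 methylation lay outside the complexes. SETD7, a SET-domain enzyme that works without the core and places monomethylation on H3K4 and on other proteins, rose to 135 ± 4.83 CPM in HCCLM3 si-circASH2, against 82.1 ± 0.570 CPM in HCCLM3 si-NC libraries (0.72 ± 0.04, edgeR adjusted p = 2.33e-12). In Huh7 it had 180 ± 6.72 CPM with si-circASH2, against 87.1 ± 0.981 CPM with si-NC (1.05 ± 0.04, edgeR adjusted p = 3.26e-15). The SETD7 effect was the smaller in HCCLM3 (difference -0.33 ± 0.06, edgeR adjusted p = 0.000112). SMYD3, a methyltransferase of the SMYD family, rose in HCCLM3 (0.51 ± 0.05, edgeR adjusted p = 1.01e-07). Of the 5 genes in this list 3 were tested, of which 2 rose in HCCLM3 (median 0.51) and 1 in Huh7 (median -0.09). WDR5B, an intronless relative of WDR5, was low but rose in both lines, with 9.85 ± 0.136 CPM in HCCLM3 si-circASH2 against 7.59 ± 0.398 CPM in HCCLM3 si-NC libraries (0.38 ± 0.10, edgeR adjusted p = 0.00633), and 9.64 ± 0.455 against 7.68 ± 0.777 CPM in the si-circASH2 and si-NC libraries of Huh7 (0.33 ± 0.10, edgeR adjusted p = 0.0154). The Huh7 call of WDR5B was lost without replicate 3 of the Huh7 si-NC libraries (adjusted p = 0.093) or of the si-circASH2 libraries (0.0527). It was 1 of 2 tested genes among 3 relatives of the core, and the other passed in neither line by the edgeR test.

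Among 14 genes of readers and partners of methylated H3K4, 2 rose, 1 fell and 11 did not pass in HCCLM3 (median 0.03), and 1 rose, 4 fell and 9 did not pass in Huh7 (median -0.16). The numbers that did not pass are near the 69.4% and 68.6% of all tested features. Without HCCLM3 si-circASH2 replicate 2, 1 in place of 3 passed in HCCLM3, and 5 passed when that line was fitted alone. SPIN1, a reader of trimethylated H3K4, fell in both lines, with a log2 fold change of -0.15 in HCCLM3 (edgeR adjusted p = 0.0122) and -0.30 in Huh7 (edgeR adjusted p = 1.41e-05). The HCCLM3 call of SPIN1 was lost without replicate 2 of the HCCLM3 si-NC libraries (adjusted p = 0.0586) or of the si-circASH2 libraries (0.096), and with limma on FPKM over all features above 0 (0.0603). The chromatin remodeller CHD1 rose in HCCLM3 (0.20, edgeR adjusted p = 0.00168). BPTF, a subunit of another remodeller, also passed there (0.12, edgeR adjusted p = 0.0329), although its groups overlapped and it held in 2 of 6 fits that left out a library (adjusted p up to 0.149). ING3 (-0.55) and DIDO1 (-0.20), which carry PHD fingers that bind the mark, fell in Huh7.

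Ubiquitination of histone H2B, which precedes H3K4 methylation by the SETD1 enzymes, was represented by 11 genes. Of these, 3 rose, 1 fell and 7 did not pass in HCCLM3 (median 0.07), and 2 rose, 1 fell and 8 did not pass in Huh7 (median -0.01), near the 69.4% and 68.6% of all tested features that did not pass. Without Huh7 si-NC replicate 2, and with limma on FPKM over all features above 0, 1 in place of 3 passed in Huh7. RNF20, the ligase that ubiquitinates H2B, rose in HCCLM3 (0.29, edgeR adjusted p = 5.27e-05). Its partner WAC fell there by 0.13 (edgeR adjusted p = 0.00873), a call lost without HCCLM3 si-circASH2 replicate 3 (adjusted p = 0.0507) and with limma on FPKM (0.204 to 0.334). CTR9, a subunit of the PAF1 complex that travels with RNA polymerase, rose in both lines, by 0.19 in HCCLM3 (edgeR adjusted p = 0.00362) and by 0.18 in Huh7 (edgeR adjusted p = 0.00616). The Huh7 call of CTR9 was lost without Huh7 si-NC replicate 2 (adjusted p = 0.0636) and with limma on FPKM over all features above 0 (0.0678). CDC73, of the same complex, rose in Huh7 (0.18, edgeR adjusted p = 0.0121), a call lost without replicate 2 of the Huh7 si-NC libraries (adjusted p = 0.0562), without replicate 3 of the si-circASH2 libraries (0.0796) and with limma on FPKM (0.0703 to 0.109). RTF1, which also binds the complex, fell in Huh7 (-0.39, edgeR adjusted p = 6.11e-07).

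Enzymes and partners of other histone lysine marks gave 4 that rose, 5 that fell and 11 that did not pass of 20 in HCCLM3 (median 0.01), and 2, 11 and 7 in Huh7 (median -0.13), where 15.1% of all tested features were higher and 15.5% lower in HCCLM3, and 16.3% and 15.1% in Huh7. The HCCLM3 count varied: 2 in place of 4 rose without HCCLM3 si-NC replicate 2, si-NC replicate 3 or si-circASH2 replicate 3, and 2 in place of 5 fell in each form of limma on FPKM, with 1 in place of 4 that rose over all features above 0. In Huh7 8 to 11 fell over all settings, and 1 in place of 2 rose with limma on FPKM and without Huh7 si-NC replicate 1 or si-circASH2 replicate 3. KMT5A, the H4K20 monomethyltransferase, fell in both lines, with a log2 fold change of -0.69 in HCCLM3 (edgeR adjusted p = 5.93e-11) and -0.65 in Huh7 (edgeR adjusted p = 8.42e-10). In HCCLM3 the Polycomb subunit SUZ12 rose (0.22) and the H3K79 enzyme DOT1L fell by 0.24. EZH2, the H3K27 enzyme of Polycomb (-0.41), and SUV39H1, an H3K9 enzyme (-0.39), fell in Huh7.

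Of 15 known target genes of menin and KMT2A, 14 were tested, of which 4 fell and 10 did not pass in HCCLM3 (median -0.24), and 2 fell and 12 did not pass in Huh7 (median -0.03), where 15.5% of all tested features were lower in HCCLM3 and 15.1% in Huh7. The HCCLM3 count was fragile: 1 in place of 4 fell without HCCLM3 si-NC replicate 2, without si-circASH2 replicate 1 and with limma on log2(FPKM + 0.1), and 2 fell without si-NC replicate 3, without si-circASH2 replicate 2 or 3, with upper quartile factors, with DESeq2, without the filter on low counts and with the replicate block. In the fit of HCCLM3 alone and in that without HCCLM3 si-NC replicate 1, 1 gene rose. HOXA10, named after its values were seen, passed narrowly in HCCLM3 (-0.53, edgeR adjusted p = 0.0491) and was lost in 4 of 6 fits that left out a library (adjusted p up to 0.157). CDKN1B, a cell-cycle inhibitor, had 29.4 ± 0.667 CPM in HCCLM3 si-circASH2 against 40.01 ± 2.08 CPM in HCCLM3 si-NC libraries (-0.44 ± 0.06, edgeR adjusted p = 2.23e-06), and 43.8 ± 1.91 against 71.9 ± 4.42 CPM in the si-circASH2 and si-NC libraries of Huh7 (-0.71 ± 0.05, edgeR adjusted p = 5.07e-10). HOXA11, a homeobox gene, fell in HCCLM3 (-0.45, edgeR adjusted p = 0.0202), and 3 of 6 fits that left out a library lost it (adjusted p up to 0.132), as did limma on log2(FPKM + 0.1) (0.0816). PBX3, a homeobox partner of HOX proteins, fell in Huh7 (-0.38, edgeR adjusted p = 0.000358). Its HCCLM3 value passed narrowly (-0.18, edgeR adjusted p = 0.0454), and in 0 of 6 fits that left out a library (adjusted p up to 0.183).

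The genes whose profile over the 12 libraries came closest to each member were found by the root mean square difference of log2 CPM after centring each gene on its own mean, among 10905 features with a mean of at least 5 CPM. For ASH2L these were EBP, a sterol isomerase (0.0489), GLUD1, a glutamate dehydrogenase (0.0647), and RAD1, a checkpoint clamp subunit (0.0658), against a median of 0.736 over all candidates. EBP had 127 CPM in HCCLM3 si-circASH2, 155 in HCCLM3 si-NC, 317 in Huh7 si-circASH2 and 373 in Huh7 si-NC libraries. ABCF2 was closest to WDR5 (0.0458), CTSB to RBBP5 (0.0449), NPAT to DPY30 (0.0587), PRCC to SETD1B (0.0639) and KIF1C to SETD1A (0.0442). ANKRD36 was closest to KMT2A (0.0751), TRMT112 to KMT2B (0.0441), UBP1 to KMT2C (0.057) and BAZ2A to KMT2D (0.0375). No member of the complexes was among the 3 genes closest to another. With only 3 genes kept of 10905 candidates, this cannot show whether the members vary together.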

How the data were processed

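RNA from HCCLM3 and Huh7 cells with si-circASH2 or si-NC was sequenced in 12 libraries, 3 per group. Per the labels' protocols, column-purified RNA went into SMARTer mRNA libraries. The deposited gene counts, per the file headers whole numbers per gene and library, were made by the authors. The deposited FPKM of the same genes were scaled by the authors for length and depth. The builds hg38, GRCm38 and mm10 appear in the submitters' processing notes, with no role stated. Not given in the sources used here are the aligner, counting tool, strand, siRNA sequences and time after transfection.

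The main test was the robust quasi-likelihood test of edgeR 4.0.16 (R 4.3.3) on the counts: filterByExpr over the 4 groups (minimum count of 10), TMM scaling, 1 coefficient per group over all 12 libraries, 8 residual degrees of freedom, Benjamini-Hochberg adjustment over 16946 features (2505 of them assembled features without a symbol) and a threshold of 0.05. The common biological coefficient of variation was 5.65%. The comparisons were si-circASH2 minus si-NC in each line, the difference of these effects (HCCLM3 minus Huh7) and HCCLM3 si-NC minus Huh7 si-NC. Standard errors were the size of the log2 fold change over the root of F, and intervals are 95%. Fits were tested on simulated data. Replicates differed by a chi-square of 3.89 to 8.53 per degree of freedom, so none was treated as a repeat of another.

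Positions and motifs come from GENCODE 29 (GRCh38). Alternatives were RLE and upper quartile factors, DESeq2 1.42.0, no filter, each line alone, the replicate number as a block, leaving out each library, and limma 3.58.1 on log2(FPKM + 1) and log2(FPKM + 0.1). The 10 genes were named whatever their values. From each of 8 other lists up to 3 genes with the smallest p in each knockdown comparison were named, with subunits and demethylases that passed in both lines. CXXC1, WDR82, MEN1, KDM1A and HOXA10 were named after their values were seen. The members and lists were chosen with earlier results of these data known. NSD2, NSD3 and SKIC8 were matched by older symbols.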

Additional observations from a re-analysis of the deposited data

Results flagged for a closer look

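For 2 of the 10 genes the knockdown effect differed between the lines in a test of the difference itself. WDR5 did not pass in HCCLM3 (log2 fold change 0.08) and was lower after si-circASH2 in Huh7 (-0.19), and the effect in HCCLM3 exceeded that in Huh7 by 0.27 (edgeR adjusted p = 0.003). KMT2C was higher in both lines (0.33 in HCCLM3 and 0.15 in Huh7), and its effect in HCCLM3 exceeded that in Huh7 by 0.19 (edgeR adjusted p = 0.0464). The KMT2C values depend on the processing: the Huh7 change was -0.034 on log2(FPKM + 1), and the difference passed in 2 of 12 fits that left out a library and in 4 of 8 other settings. Over all tested features 9.6% were higher and 11.3% lower in this comparison, 20.9% together, so 2 of 10 is near the background.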

How the results depend on the processing

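Over 640 values of the 10 genes under 21 other settings, 584 kept their direction and their side of the threshold, 39 lost a call, 8 gained one and 9 changed sign. The 5 calls in HCCLM3, those of ASH2L, WDR5 and RBBP5 in Huh7 and the WDR5 difference between the lines passed in each of these settings. For that difference 1 gene was called, in place of 2, with upper quartile factors and with limma on log2(FPKM + 1) and log2(FPKM + 0.1) for features with a mean FPKM of at least 1. In Huh7, 3 were called, in place of 6, with limma on log2(FPKM + 1) over all features above 0. Leaving out 1 library at a time gave 5 calls in every fit for HCCLM3, 3 to 6 in Huh7 (3 without si-NC replicate 1), 1 to 2 for the difference and 9 to 10 between the si-NC libraries. Values that changed sign were those of KMT2A in Huh7 (-0.21 to 0.038 with 1 library left out, above 0 without si-circASH2 replicate 1) and SETD1B in HCCLM3 (-0.055 to 0.044, below 0 without replicate 3 of either group). In Huh7 with limma, KMT2C was -0.034 and KMT2D -0.0079 on log2(FPKM + 1) with either filter, and -0.039 and -0.0086 on log2(FPKM + 0.1). The cause was not tested.

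No deviation shared by replicate number was seen: same-numbered si-circASH2 and si-NC libraries had correlations of their deviations between 0.00 and 0.01 in HCCLM3 and between -0.03 and 0.04 in Huh7. With 3 libraries per group, these values cannot show whether libraries were paired by design. With the replicate block 5 genes were called in HCCLM3, 6 in Huh7, 2 for the difference and 9 between the si-NC libraries.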
